A study of Oryctolagus cuniculus with 16 samples.

Results

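Transcripts of 9 leukocyte adhesion molecules were followed in the femoral head of rabbits with surgically produced Perthes disease and of control rabbits. The 9 genes were *ICAM1*, *ICAM2*, *SELE*, *SELPLG*, *ITGAL*, *ITGAM*, *ITGAX*, *ITGB2* and *ITGA4*, out of 20255 genes in the count table. They were chosen by a proposal made with the Perthes and control values of these same libraries known, so their differences between the groups are given as a description. How many of them passed the call rule used for the whole table is given beside the share or count of all genes that passed it, and is no test of them. In the table, 8 of them stood under their symbol, and *ITGAM* stood under an identifier whose description is integrin alpha-M, so it was matched by gene ID. All 9 passed the filter on low counts, as did 15305 genes in all.

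Total RNA depleted of ribosomal RNA was sequenced from bulk femoral head tissue of 5 Perthes and 3 control rabbits. The Perthes rabbits were immature animals of wild-type stock operated on at the hip, with a ligature around the femoral neck and the ligamentum teres divided, a procedure meant to deprive the growing femoral head of blood. The control rabbits were labelled as wild type and described as healthy, and a sham operation was not stated in the sources used here. The time from surgery to sampling was not given there either.

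Leukocytes leave the blood in steps. Selectins such as E-selectin on activated endothelium catch glycans carried by PSGL-1, the product of *SELPLG*, and let the cells roll, after which integrins that share the beta 2 chain hold them to ICAM-1 and ICAM-2. The beta 2 chain, encoded by *ITGB2*, pairs with the alpha chains of *ITGAL* (LFA-1), *ITGAM* (Mac-1) and *ITGAX* (p150,95), and the alpha 4 chain of *ITGA4* pairs mainly with beta 1 to bind VCAM-1.

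The libraries held between 26757087 and 29461482 counts, so that 1 count corresponded to between 0.0333 and 0.0375 CPM (counts scaled to a common library size with TMM factors). Cartilage and bone transcripts were abundant in every library. For each marker list below, the leading gene is the one with the highest mean CPM over the 8 libraries, with no correction for gene length. The 9 cartilage markers in the table summed to 38368, 43639, 80001, 147256 and 64782 CPM in Perthes rabbits 1 to 5 and to 49000, 47096 and 66454 CPM in control rabbits 1 to 3, with *COL2A1* the most abundant. Perthes rabbit 4 stood above all other libraries, and the groups overlapped. The same library had the lowest leukocyte and macrophage sums given below, and the part of its cartilage content in its other values was not tested. The 10 markers of bone-forming cells summed to 95382 ± 41799 CPM in Perthes (SD, n = 5) and 84704 ± 9811 CPM in control tissue (SD, n = 3), with *COL1A1* the most abundant. *COMP* was not listed in the table, and *MATN1* had too few counts to be tested. The 7 skeletal muscle markers summed to 12.6 ± 4.27 CPM in Perthes and 31.5 ± 32.9 CPM in control tissue, with *TTN* the most abundant (*NEB* was higher in Perthes rabbit 4), and the 5 adipocyte markers to 985.2 ± 547.2 and 825.7 ± 525.3 CPM, with *LPL* the most abundant. None of the genes tested in these 4 lists was called.

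Blood cell markers separated the libraries more. The 11 neutrophil lineage markers in the table summed to 31.6, 2028, 751.4, 1974 and 216.5 CPM in Perthes rabbits 1 to 5, and to 24995, 7854 and 7487 CPM in control rabbits 1 to 3. *LCN2* had the highest mean and was the highest in 5 of the 8 libraries, with *LTF* above it in Perthes rabbit 3 and control rabbit 1 and *S100A9* in Perthes rabbit 5. Every control library was above every Perthes library, and control rabbit 1 stood far above the other controls. Of these 11 genes, 6 were called lower in Perthes tissue and none higher. The 10 erythroid markers summed to 497.5, 20317, 3338, 2454 and 806.5 CPM in the Perthes rabbits and to 32698, 42548 and 26180 CPM in the controls, with *HBB2* the most abundant. The groups did not overlap here, although Perthes rabbit 2 came near the lowest control. *ELANE*, *AZU1* and *PRTN3* were not listed in the table.

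The 10 monocyte and macrophage markers summed to 1761, 991.3, 1339, 490.5 and 1648 CPM in the Perthes rabbits and to 677.9, 575.7 and 520.2 CPM in the controls. *CSF1R* had the highest mean and was the highest in 6 of the 8 libraries, with *CD68* above it in Perthes rabbit 1 and *C1QC* in control rabbit 1. Perthes rabbit 4 lay below the controls and the other Perthes rabbits lay above them. *CSF1R*, *CD14*, *CD68* and *MRC1* were called higher and *C1QC* lower. The 6 markers shared by leukocytes summed to 2370, 1343, 1846, 739.9 and 2130 CPM in the Perthes rabbits and to 2085, 1105 and 1079 CPM in the controls, with *LCP1* the most abundant in 6 of the 8 libraries and *LAPTM5* in Perthes rabbits 2 and 3, and overlapped between the groups, with 1 gene, *ARHGDIB*, called lower. The 11 endothelial markers summed to 436.4 ± 65.2 and 435.7 ± 42.9 CPM, with *PECAM1* the most abundant in all libraries but that of Perthes rabbit 3, where *VWF* was, and 1 gene, *ERG*, called lower. The 11 T cell markers summed to 17.2 ± 6.59 and 25.8 ± 10.8 CPM, with *LCK* the most abundant in 5 of the 8 libraries, *CD8A* in the others and no gene called, and the 9 B lineage markers to 108 ± 20.5 and 98.2 ± 23.0 CPM, with *EBF1* the most abundant and 1 gene, *MS4A1*, called lower. No listed marker was at 0 in all 8 libraries. In bulk tissue, fewer cells of a type and less RNA per cell cannot be told apart, and the part of these cell types in the results that follow was not tested.

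**Figure D1:**
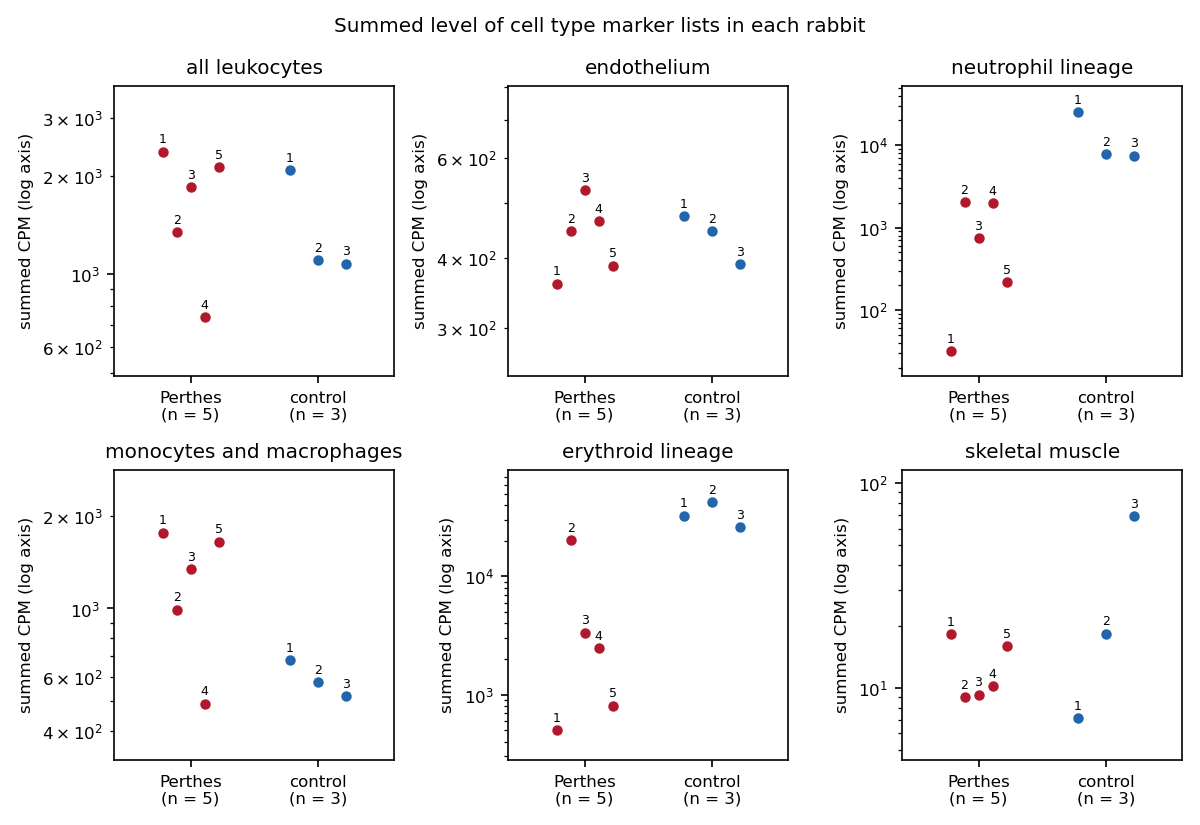
Summed CPM of 6 marker lists on log axes, with 1 point per rabbit and its number above it, for 5 Perthes and 3 control rabbits. The neutrophil and erythroid sums of the controls lie above those of every Perthes rabbit, and Perthes rabbit 4 has the lowest leukocyte sum, 739.9 CPM.

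Across the whole table, a gene was called when its adjusted p in edgeR's quasi-likelihood F-test was below 0.05. With that rule 951 genes, 6.21% of those tested, were higher in Perthes tissue and 1356 genes, 8.86%, were lower. Scaling by library totals alone gave 678 higher and 1705 lower. Among the 9 adhesion molecules, 2 passed the rule as higher (*ICAM1* and *ITGAX*), 1 as lower (*ITGA4*) and 6 did not pass. The groups did not overlap with Perthes higher in 1 of the 9, where this held for 11.2% of all genes tested, and with Perthes lower in 1, where it held for 13.9%. Nothing is read from these counts, as the same contrast was known when the genes were chosen. With 1 library left out, *ICAM1* did not pass without control rabbit 2 (log2 fold change 1.55), *ITGAX* did not pass without Perthes rabbit 1 (2.46), 3 (2.45) or 5 (2.50) or control rabbit 1 (2.45), 2 (3.00) or 3 (2.52), and *ITGA4* did not pass without Perthes rabbit 5 (-0.89) or control rabbit 1 (-0.96), 2 (-0.90) or 3 (-0.82). Nothing is read from these either. Calls were lost with single libraries left out. Without control rabbit 1, 73 genes of the table were called higher and 184 lower, and without control rabbit 2 edgeR called 0 genes, with 3722 at an unadjusted p below 0.05. Leaving out Perthes rabbit 3 gave 385 higher and 646 lower, and leaving out Perthes rabbit 5 gave 351 and 550. DESeq2 on all 8 libraries called 1720 genes higher and 1916 lower.

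**Figure D2:**
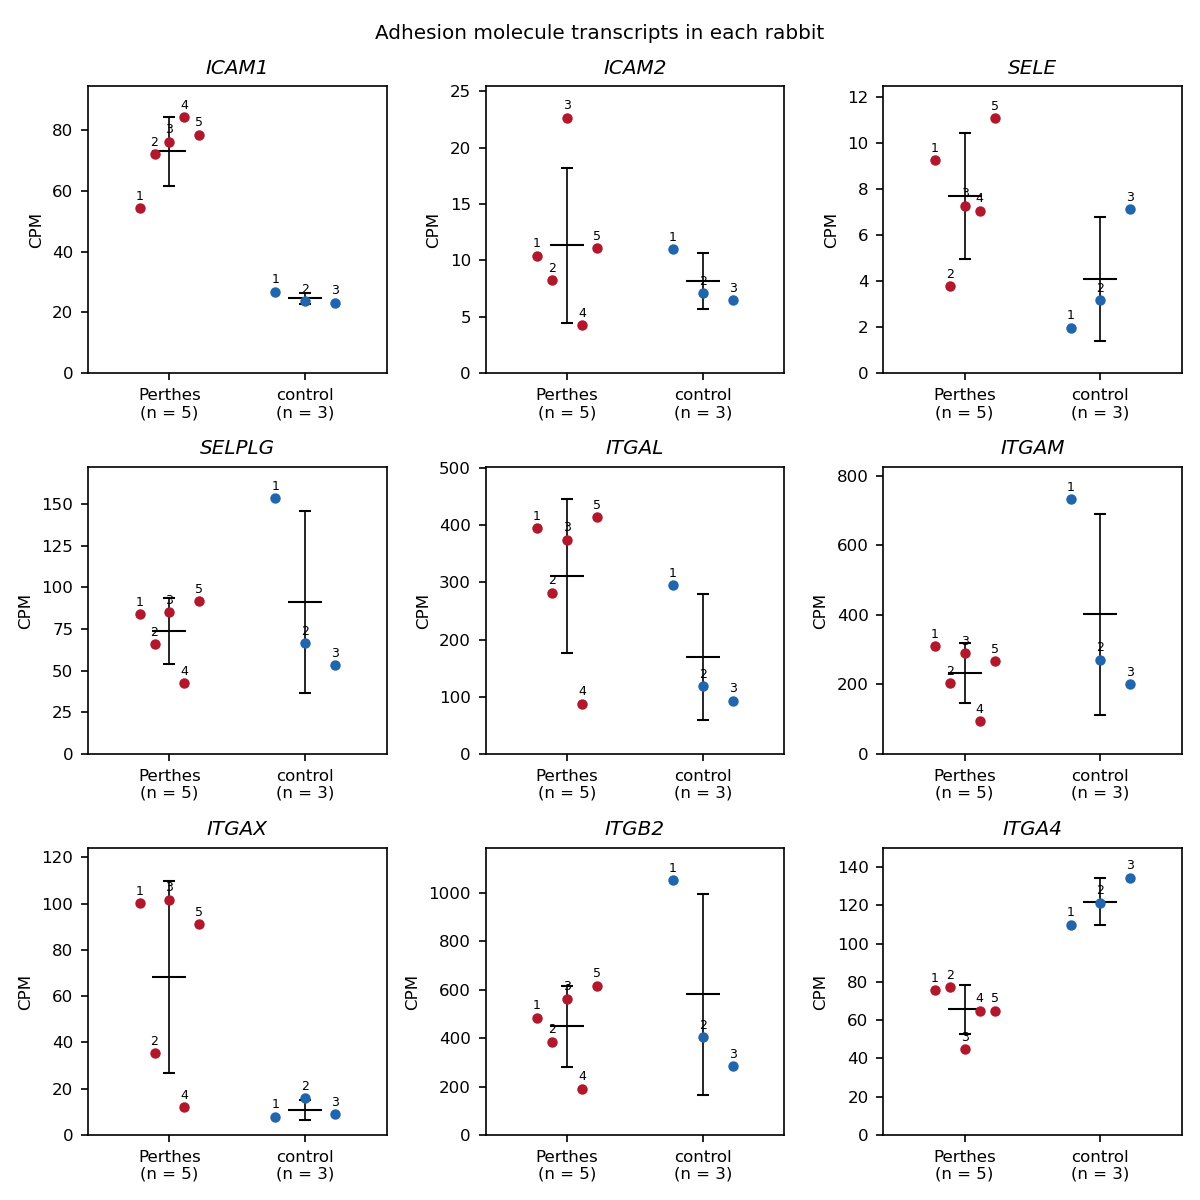
CPM of the 9 adhesion molecules, with 1 point per rabbit and its number above it, and the mean and SD of 5 Perthes and 3 control rabbits as black bars. The groups are apart for ICAM1 and ITGA4, and control rabbit 1 is the highest library for ITGB2, ITGAM and SELPLG.

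*ICAM1*, the ligand of LFA-1 and Mac-1 on endothelium and many other cells, was measured at 54.4, 72.1, 76.3, 84.3 and 78.5 CPM in Perthes rabbits 1 to 5 and at 26.8, 23.8 and 23.1 CPM in control rabbits 1 to 3. Every Perthes library was above every control library, and the lowest of them, Perthes rabbit 1, was still well clear of the highest control. The means were 73.1 ± 11.4 CPM (SD, n = 5) and 24.6 ± 1.95 CPM (SD, n = 3), and the log2 fold change was 1.57 with an SE of 0.18. It ranged from 1.52 to 1.66 over the 8 libraries left out in turn. The expected counts of *ICAM1* were not whole numbers in any of the 8 libraries, so some of its reads were shared with other transcripts, and its level is uncertain to that extent.

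*ICAM2*, a second ligand of LFA-1 that resting endothelium carries, was measured at 10.4, 8.24, 22.6, 4.26 and 11.1 CPM in the Perthes rabbits and at 11, 7.09 and 6.45 CPM in the controls. Perthes rabbit 3 was the highest and Perthes rabbit 4 the lowest of all 8 libraries, and the groups overlapped. The log2 fold change was 0.47 with an SE of 0.47, and it was 0.06 without Perthes rabbit 3 and 0.74 without control rabbit 1. *SELE*, which encodes E-selectin, was measured at 9.25, 3.78, 7.27, 7.06 and 11.1 CPM in the Perthes rabbits and at 1.97, 3.17 and 7.12 CPM in the controls. Control rabbit 3 fell within the Perthes values while control rabbits 1 and 2 lay below them all, and the log2 fold change was 0.91 with an SE of 0.46. It was 0.58 without control rabbit 1 and 1.58 without control rabbit 3.

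*SELPLG*, which encodes the selectin ligand PSGL-1 of leukocytes, was measured at 83.7, 66.1, 85.0, 42.4 and 91.7 CPM in the Perthes rabbits and at 153.6, 66.7 and 53.5 CPM in the controls. Control rabbit 1 was the highest library and Perthes rabbit 4 the lowest, with the rest intermingled. The log2 fold change was -0.31 with an SE of 0.37. It was 0.30 without control rabbit 1, -0.49 without control rabbit 2, -0.58 without control rabbit 3 and -0.16 without Perthes rabbit 4.

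*ITGB2*, the beta chain common to the leukocyte integrins, was measured at 483.6, 385.4, 562.7, 191.5 and 615.7 CPM in the Perthes rabbits and at 1052, 403.6 and 283.7 CPM in the controls. The groups overlapped, with control rabbit 1 above all others and Perthes rabbit 4, which had the highest cartilage sum and the lowest leukocyte sum, below them. The log2 fold change was -0.37 with an SE of 0.48. It was 0.38 without control rabbit 1, -0.58 without control rabbit 2, -0.70 without control rabbit 3 and -0.18 without Perthes rabbit 4. *ITGAM*, the alpha chain of Mac-1 on neutrophils, monocytes and macrophages, was measured at 310.3, 204.4, 289.9, 93.9 and 266.9 CPM in the Perthes rabbits and at 731.9, 271.6 and 200.2 CPM in the controls. The same 2 libraries stood at the ends, control rabbit 1 at the top and Perthes rabbit 4 at the bottom. The log2 fold change was -0.78 with an SE of 0.48, and -0.02 without control rabbit 1. Its expected counts were not whole in 4 of the 8 libraries.

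*ITGAL*, the alpha chain of LFA-1, was measured at 395.1, 282.2, 374.9, 87.9 and 414.1 CPM in the Perthes rabbits and at 295.7, 118.1 and 93.5 CPM in the controls. Perthes rabbits 1, 3 and 5 were above every control, Perthes rabbit 2 was just under control rabbit 1, and Perthes rabbit 4 was below every control. The log2 fold change was 0.88 with an SE of 0.54, and 1.56 without control rabbit 1.

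*ITGAX*, the alpha chain of p150,95 found on macrophages and dendritic cells, was measured at 100.3, 35.3, 101.7, 12.2 and 91.3 CPM in the Perthes rabbits and at 7.93, 15.8 and 9.11 CPM in the controls. In 4 Perthes rabbits the level was above every control, and Perthes rabbit 4 lay among the controls, below control rabbit 2. The means were 68.2 ± 41.5 CPM (SD, n = 5) and 10.9 ± 4.24 CPM (SD, n = 3), and the log2 fold change was 2.64 with an SE of 0.68. It ranged from 2.45 to 3.00 over the 8 libraries left out in turn. The expected counts of *ITGAX* were not whole in any library, so its level is uncertain for shared reads as well.

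Dividing counts within a library removes the scaling between libraries. Of 20 such ratios, formed after the values had been seen, the groups were apart with Perthes higher in 7, apart with Perthes lower in 3, and overlapping in 10. The ratio of *ITGAL* to *ITGB2* counts was 0.817, 0.732, 0.666, 0.459 and 0.672 in the Perthes rabbits and 0.281, 0.292 and 0.329 in the controls. Perthes rabbit 4 and control rabbit 1, which stood at the ends for *ITGB2* itself, lay with their own groups in this ratio. The ratio of *ITGAM* to *ITGB2* was 0.642, 0.530, 0.515, 0.490 and 0.433 in the Perthes rabbits and 0.696, 0.673 and 0.706 in the controls, with every Perthes rabbit below every control. The ratio of *ITGAX* to *ITGB2* was 0.207, 0.0917, 0.181, 0.0635 and 0.148 in the Perthes rabbits and 0.00754, 0.0391 and 0.0321 in the controls, again without overlap. These differences were not tested. Relative to *PTPRC*, a gene of all leukocytes, *ITGB2* gave 3.62 ± 1.03 in Perthes (SD, n = 5) and 3.68 ± 1.42 in control tissue (SD, n = 3), with overlapping groups. The *PTPRC* ratios of *ITGAL*, *ITGAM* and *SELPLG* overlapped too. That of *ITGAX* was 0.503 ± 0.268 in Perthes and 0.0837 ± 0.0485 in control tissue, with every Perthes rabbit above every control. That of *ICAM1* was 0.694 ± 0.386 and 0.177 ± 0.0386, again without overlap, and these were not tested either. Relative to the macrophage genes *CSF1R* and *CD68*, both called higher in Perthes tissue, the groups overlapped for *ITGAX*. The values were 0.179 ± 0.0882 and 0.0652 ± 0.0208 for *CSF1R* and 0.203 ± 0.0770 and 0.144 ± 0.0515 for *CD68*. Relative to *CDH5*, a gene of endothelial junctions, *ICAM1* gave 0.996 ± 0.0856 and 0.464 ± 0.159, with every Perthes rabbit above every control. The *ICAM1* ratios to *PECAM1* and *COL1A1* were apart in the same direction. Those to *ICAM2* (8.85 ± 6.45 and 3.125 ± 0.609) and to *ITGAL* (0.349 ± 0.344 and 0.180 ± 0.0807) overlapped between the groups.

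**Figure D3:**
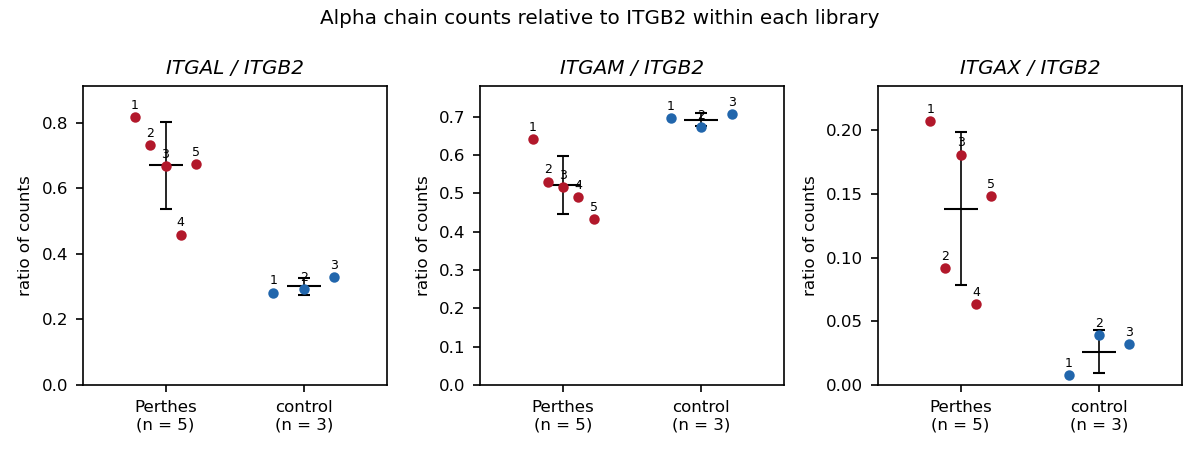
Counts of 3 alpha chain genes divided by the ITGB2 count of the same library, with 1 point per rabbit and its number above it, and the mean and SD of 5 Perthes and 3 control rabbits as black bars. The groups do not overlap in any of the 3 ratios.

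*ITGA4*, the alpha chain of the VCAM-1 receptor VLA-4, was measured at 75.8, 77.2, 45.0, 65.0 and 65.0 CPM in the Perthes rabbits and at 110.0, 121.4 and 134.4 CPM in the controls. Every Perthes library was below every control library. The means were 65.6 ± 12.9 CPM (SD, n = 5) and 121.9 ± 12.2 CPM (SD, n = 3), and the log2 fold change was -0.89 with an SE of 0.19. It ranged from -0.96 to -0.79 over the 8 libraries left out in turn. The ratio of *ITGA4* to the counts of its partner chain *ITGB1*, itself called higher in Perthes tissue, was 0.0938 ± 0.0208 in Perthes and 0.330 ± 0.0465 in control tissue, without overlap. *ITGB1* ranged from 593 to 839.7 CPM in Perthes and from 286.9 to 448.8 CPM in control tissue. With *ITGA4* apart in the other direction, this ratio had to separate the groups, and it is no separate result. Relative to *PTPRC*, *ITGA4* gave 0.591 ± 0.282 and 0.904 ± 0.314, and the groups overlapped.

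The rest of the adhesion pathway was read from 8 lists that held none of the 9 genes. Of 144 names written, 133 were listed in the table and 129 were tested, of which 15 were called higher, 14 lower and 100 not called. Over all genes tested, 6.21% were called higher and 8.86% lower. These shares also stand beside the counts of each marker list above and each list below, and nothing is read from those counts. The median log2 fold change of the 129 was 0.08, beside 0.02 over all genes tested. Without control rabbit 2 edgeR called 0 of the 129, with 46 at an unadjusted p below 0.05, and without control rabbit 1 it called 1 higher and 0 lower, with 39 at an unadjusted p below 0.05. Without Perthes rabbit 3 there were 6 higher and 6 lower, and without Perthes rabbit 5 there were 4 and 6. DESeq2 on all libraries called 25 higher and 20 lower.

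Among 19 tested endothelial and other immunoglobulin-type adhesion receptors, 0 were higher and 4 were lower (*ICAM3*, *ICAM4*, *SELP* and *CD226*) in edgeR, with 15 not called and a median log2 fold change of 0.08. *SELP*, which encodes the P-selectin of platelets and endothelium, was measured at 1.55, 10.4, 3.19, 4.22 and 2.48 CPM in the Perthes rabbits and at 39.1, 22.1 and 21.9 CPM in the controls. All Perthes values were below all control values, and the log2 fold change was -2.67 (SE 0.54, edgeR adjusted p = 0.0165). *ICAM3*, an ICAM of leukocytes, had a log2 fold change of -3.18 (SE 0.75, edgeR adjusted p = 0.0247), with Perthes values from 2.19 to 23.6 CPM and control values from 41.5 to 195.4 CPM. *ICAM4*, an ICAM of red cells, had a log2 fold change of -3.01 (SE 0.77) at levels of at most 1.97 CPM. Both lost their call without Perthes rabbit 3 or Perthes rabbit 5, and all 3 lost it without control rabbit 1 or 2. *ICAM4* was not tested under a filter of at least 10 counts in every library. *VCAM1*, the endothelial ligand of VLA-4, ranged from 14.0 to 134.2 CPM in Perthes and from 100.8 to 131.0 CPM in control tissue and was not called. Perthes rabbit 2, at the highest level of all 8 libraries, was the only Perthes library within or above the control range, and without it the gene was called at a log2 fold change of -2.21. *PECAM1* was not called either, at -0.30 with an SE of 0.24, and was at 0.010 without control rabbit 1 and -0.47 without control rabbit 3.

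Of 14 leukocyte adhesion receptors outside the 9 genes, 1 was higher (*ITGB1*), 2 were lower, among them *SPN*, and 11 were not called, with a median log2 fold change of -0.09. *SPN*, the mucin CD43, was measured at 26.2, 49.5, 43.8, 21.1 and 41.9 CPM in the Perthes rabbits and at 165.5, 116.7 and 87.8 CPM in the controls. Every Perthes library was below every control, and the log2 fold change was -1.76 (SE 0.31, edgeR adjusted p = 0.0133). *ITGB1* had a log2 fold change of 0.91 (SE 0.22, edgeR adjusted p = 0.0274). Without control rabbit 1 or 2 these calls were lost, and that of *ITGB1* also without Perthes rabbit 3 or 5 and with scaling by library totals. The hyaluronan receptor *CD44* at 0.76 (SE 0.38) and *ITGB7* at -0.77 (SE 0.37) were not called, and *ITGB7* was at -0.19 without control rabbit 1.

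Among 17 tested integrin subunits of other families, 6 were higher, 1 was lower and 10 were not called, with a median log2 fold change of 0.65. *ITGB8* had a log2 fold change of 1.76 (SE 0.45), *ITGA3* of 1.48 (SE 0.32) and *ITGAV*, the chain of vitronectin receptors, of 1.05 (SE 0.27), each with every Perthes library above every control. *ITGA2B*, the alpha chain of the platelet fibrinogen receptor, fell by 2.71 (SE 0.66). Of these, *ITGA3* lost its call without control rabbit 1 or 2, and the other 3 also without Perthes rabbit 3 or 5.

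Of 29 tested genes of integrin activation and signalling inside leukocytes, 0 were higher, 5 were lower (*RASGRP2*, *RASSF5*, *FGR*, *CORO1A* and *RAC2*) and 24 were not called in edgeR, with a median log2 fold change of -0.48 and 24 of the 29 values negative. *RASGRP2*, an activator of RAP1, had a log2 fold change of -2.91 (SE 0.73), with Perthes values from 0.844 to 12.6 CPM and control values from 22.8 to 63.1 CPM. *RASSF5*, a RAP1 effector, had -1.77 (SE 0.32) and the kinase gene *FGR* -1.75 (SE 0.35). These calls were lost without control rabbit 1 or 2, and that of *RASGRP2* also without Perthes rabbit 3 or 5. *FGR* was at -1.11 without control rabbit 1. *FERMT3*, whose product kindlin-3 activates beta integrins, was at -1.13 (SE 0.38) and was not called, but was called by DESeq2 and without control rabbit 3. Without control rabbit 1 it was at -0.55. *TLN1*, which encodes talin, was at -0.18 (SE 0.28) and was not called, and was at 0.14 without control rabbit 1, -0.36 without control rabbit 3 and -0.07 without Perthes rabbit 4.

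Of 14 tested genes that build selectin ligands, 3 were higher, 1 was lower and 10 were not called, with a median log2 fold change of 0.18. The sulfotransferase gene *CHST2* was measured at 19.9, 27.4, 33.6, 27.7 and 33.3 CPM in the Perthes rabbits and at 7.57, 7.33 and 9.54 CPM in the controls. Every Perthes library was above every control, and the log2 fold change was 1.80 (SE 0.22, edgeR adjusted p = 0.0118), with the call lost only without control rabbit 2 among the 8 libraries left out. The tyrosine sulfotransferase gene *TPST1* had a log2 fold change of 1.40 (SE 0.32) and *GALNT1* of 0.70 (SE 0.20), and the fucosyltransferase gene *FUT4* fell by 0.72 (SE 0.17). *TPST1* and *FUT4* were not called without Perthes rabbit 3 or 5 or control rabbit 1 or 2, and *GALNT1* was called in 1 of the 8 fits that left out a library, that without Perthes rabbit 3, and not with scaling by library totals or with no low-count filter. *FUT7* was not listed in the table.

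Among 13 tested linkers of the ICAM-1 tail to the cytoskeleton, 2 were higher, among them *CTTN* at 0.65 (SE 0.17), 0 were lower and 11 were not called in edgeR, with a median log2 fold change of 0.46. Among 16 tested NF-kB subunits, inhibitors and kinases, 1 was higher (*NFKBIE* at 0.76, SE 0.22), 0 were lower and 15 were not called, with a median log2 fold change of -0.04. *NFKB1* was at -0.01 (SE 0.15) and *NFKBIA* at -0.11 (SE 0.25), values near 0 that took either sign with single rabbits left out, and *RELA* was not listed in the table. Of 7 genes of adhesion receptor shedding, 2 were higher (*ADAM9* at 1.91, SE 0.36, and *RHBDF1* at 0.81, SE 0.21), *ADAM10* was lower at -0.86 (SE 0.20) and 4 were not called, among them *ADAM17* at 0.80 (SE 0.27), which was called by DESeq2 and without Perthes rabbit 4, with a median log2 fold change of 0.80. None of the calls in these 3 lists was made without control rabbit 1 or 2. Those of *CTTN*, *NFKBIE*, *RHBDF1* and *ADAM10* were also lost without Perthes rabbit 3 or 5 or control rabbit 3, those of *NFKBIE* and *RHBDF1* without Perthes rabbit 2, and those of *CTTN* and *NFKBIE* with scaling by library totals, and that of *NFKBIE* with either other filter on low counts.

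**Figure D4:**
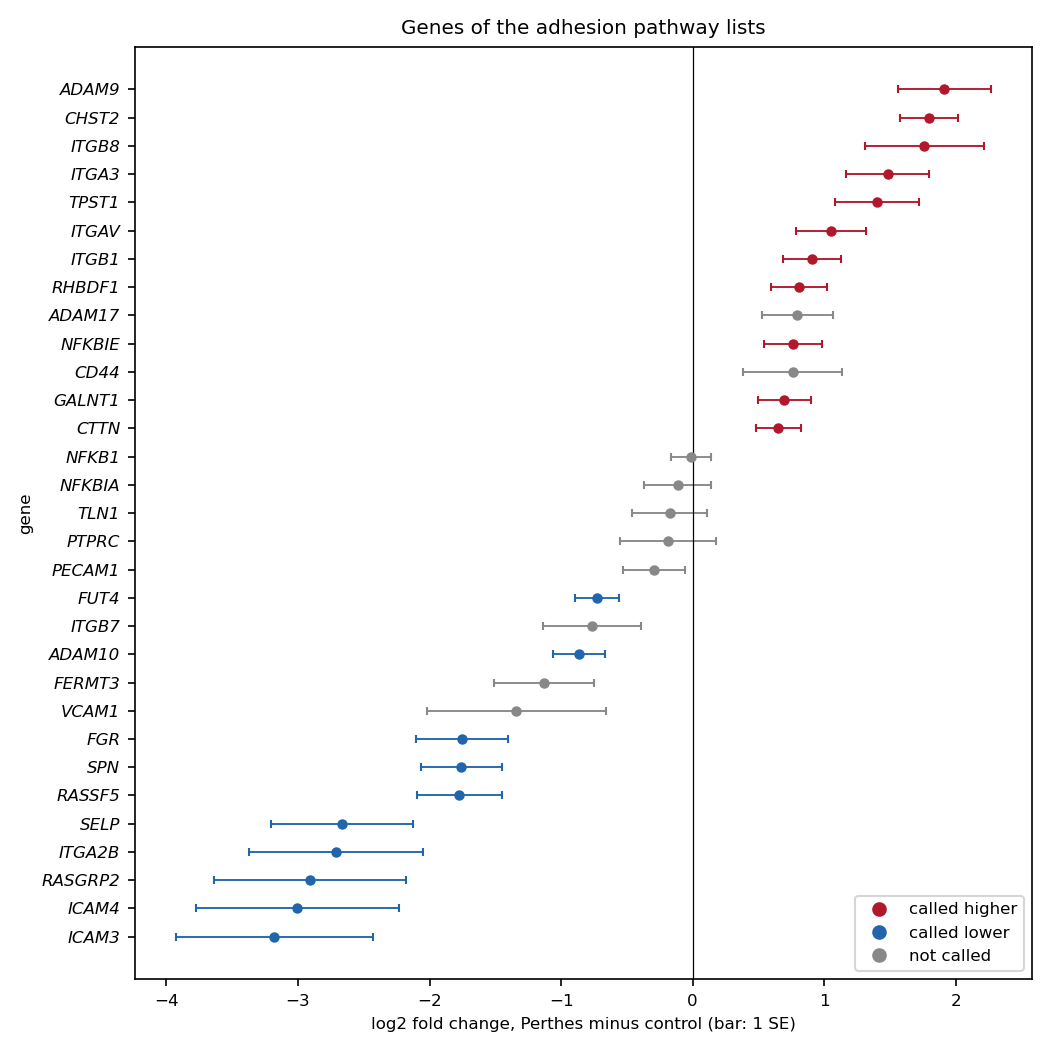
Log2 fold change, Perthes minus control, of genes of the pathway lists, with PTPRC added and bars of 1 SE, from edgeR over 5 Perthes and 3 control rabbits. Genes that were called higher lie to the right of 0, those called lower to the left, and those not called are grey.

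The genes whose log2 CPM followed that of *ICAM1* most closely over the 8 libraries were *ZNF783* (Pearson r = 0.993), *NOD2* (r = 0.990), *ALPK1* (r = 0.984), *PTK7* (r = 0.981) and *ENG* (r = 0.980). The 8 libraries share the division into groups, which enters each r. *NOD2*, a sensor of bacterial peptidoglycan, was measured at 13.6, 13.9, 15.1, 17.5 and 16.7 CPM in the Perthes rabbits and at 7.97, 7.51 and 7.35 CPM in the controls. Its groups were apart like those of *ICAM1*, which its selection by r with *ICAM1* favours, so nothing is read from it. The same held for *ZNF783*, *ALPK1*, *PTK7* and *ENG*, and with Perthes higher for 11.2% of all genes tested. Among the other adhesion molecules, *ITGA4* ran opposite to *ICAM1* (r = -0.91), *ITGAX* and *SELE* gave r = 0.652 and 0.553, *ITGAL* gave r = 0.409, *ICAM2* gave r = 0.195, and *SELPLG*, *ITGB2* and *ITGAM* gave r = -0.19, -0.17 and -0.45.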

How the data were processed

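Total RNA libraries of 5 Perthes and 3 control rabbits were used, grouped by their labels, and the small RNA libraries were not used. Per the submitters' notes, the authors used HISAT2 2.0.4 for mapping and RSEM 1.1.17 with HTSeq 1.99.2 for quantification, and they deposited expected counts for each gene. The table has 8 further per-sample columns, which were not used. Expected counts were rounded, filtered with filterByExpr, scaled by TMM and tested with edgeR 4.0.16 in R 4.3.3 (quasi-likelihood F-test, Benjamini-Hochberg adjustment over 15305 genes). The SE was the size of the log2 fold change divided by the square root of F, and 2 prior counts were added for log2 CPM. The code was tested on simulated data. Gene IDs were matched to RefSeq names of mOryCun1.1 for 16307 of 20255 rows, and no coordinates were used. Sequences and gene lengths were not used here, so CPM is not per length, and the leading gene of a marker list is a rank of CPM alone. The adhesion molecules, the 8 pathway lists and the 11 marker lists were chosen with earlier results of these data known. Genes were named when they had up to the third largest change in either direction among the called genes of a list, or stood on a fixed list of adhesion genes. *CD226*, *CORO1A*, *RAC2* and the called marker genes were named after their values were seen. Some genes that these rules take are not reported here. The alternatives were DESeq2 1.42.0, leaving out single rabbits, blocking on replicate number, and other scalings, filters and call rules. Library totals ranged from 26757087 to 29461482 counts. The number of control rabbit 3 was read from the code in its label, since its title gives 2.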

Additional observations from a re-analysis of the deposited data

Results flagged for a closer look

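In the Perthes group, 1 sample stood far from the other 4 for 2 of the 42 genes examined. *ITGA2B* was at 62.0 CPM in Perthes rabbit 2, where the next highest was 22.4 CPM, and *FUT4* was at 14.3 CPM in Perthes rabbit 5, where the next lowest was 15.7 CPM. Chance sets a sample apart in this way in about 1 in 20 groups, and the control group of 3 was not examined.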

How the results depend on the processing

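Of the 126 log2 fold changes of the 9 adhesion molecules over 14 other fits, 124 kept their sign and moved by less than 1 SD between rabbits. The other 2 changed sign without control rabbit 1, to 0.30 for *SELPLG* and 0.38 for *ITGB2*. For 33 further genes, those of the pathway lists with *PTPRC*, 338 of 461 values kept their sign and their call or lack of one, 112 were no longer called (23 of them with the block below), 5 were newly called and 6 changed sign, all 6 of genes that were not called: without control rabbit 1, 0.010 for *PECAM1*, 0.14 for *TLN1*, 0.14 for *NFKB1*, 0.18 for *NFKBIA* and 0.12 for *PTPRC*, and without Perthes rabbit 2, 0.01 for *NFKB1*. Over the 8 rabbits left out in turn, the ranges were -0.58 to 0.30 for *SELPLG*, -0.70 to 0.38 for *ITGB2*, -0.47 to 0.010 for *PECAM1*, -0.36 to 0.14 for *TLN1*, -0.091 to 0.14 for *NFKB1*, -0.25 to 0.18 for *NFKBIA* and -0.44 to 0.12 for *PTPRC*. The causes were not tested.

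DESeq2 called 1720 genes and 25 pathway genes higher. With a log2 fold change beyond 1 also asked, 645 genes were higher and 1028 lower, among them 7 and 12 pathway genes and 2 and 0 adhesion molecules. The thresholds of the study (log2 fold change beyond 2, adjusted p below 1e-05) left 0 genes in edgeR in either direction, 0 pathway genes and 0 adhesion molecules, where 4883 genes had an unadjusted p below 0.05. DESeq2, the tool of the study, gave 105 genes higher and 95 lower at these thresholds, with 0 pathway genes higher and 2 lower and 0 adhesion molecules in either direction, an alternative added after seeing the data. At an unadjusted p below 0.05 DESeq2 had 5314 genes, 64 of them pathway genes. The cause was not tested.

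With the replicate number as a block, edgeR called 0 genes higher and 0 lower, 0 of them pathway genes or adhesion molecules, with 3152 genes at an unadjusted p below 0.05. DESeq2 was not run with the block. The labels share only the numbers, and that of control rabbit 3 rests on the code in its label, as its title gives 2. The correlation of deviations from the group means was -0.317, 0.161 and -0.238 for the pairs 1 to 3, and not every library correlated best with its own number, so pairing was not used.

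Leaving out 1 rabbit at a time gave 0 to 1267 genes higher, 0 to 1628 lower, 0 to 20 pathway genes higher, 0 to 17 lower, 0 to 2 adhesion molecules higher and 0 to 1 lower. Scaling by other size factors or library totals and either other filter kept all these counts within 1.5 times the main ones. The parts of depth and of the spread between rabbits in these calls were not tested.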
